A study of Mus musculus with 3 samples.

Results

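The 37 genes described here are ribosome biogenesis and nucleolar genes, together with a few growth enzymes listed beside them, out of 25906 genes in the count tables of sorted mouse natural killer (NK) cells. The members were chosen from earlier results of these same data. The list opens with 9 genes (Srm, Mettl1, Apex1, Gpatch4, Pus7, Nop16, Timm8a1, Rrp15 and Mrto4), among which Srm, Mettl1 and Apex1 led a cluster of cells in an earlier analysis of these libraries. All 9 are treated as chosen by how they vary across these cells, which is therefore a description and not a result. The other 28 belong to the nucleolus and ribosome assembly by function, with Myc as their regulator. All 37 symbols were found in the tables.

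NK1.1+NKp46+ cells were sorted as live cells from the lungs and blood of wild-type female mice, 9 weeks old, on the C57BL/6 background. Tumor-bearing mice had received PyMT cells, a mammary tumor line driven by polyomavirus middle T antigen, through a vein either 6 h or 14 days before the end, and naive mice received none. Each of the 3 time points was 1 droplet library in which an antibody tag told lung from blood cells, with the tags matched to tissues in the order the methods name them. The single-cell experiment was done once, with 5 mice per experimental group given as replicates. Their cells are pooled in a library with no map from cells to mice, so mice are not replicates here. Naive lung gave 3676 cells and naive blood 4367, the 6 h library gave 4680 and 2746, and the 14-day library gave 3575 and 2069. Median depth was 5910 to 7524 unique molecular identifiers (UMIs, each standing for 1 captured transcript) per cell, and 16936897 to 35922737 UMIs stood behind a group. Time points were not tested against each other, since each was 1 library, the time point and the library cannot be told apart, and all intervals below are 95% intervals that cover counting error only. Lung and blood were both in each of the 3 libraries, and 1 test between tissues is given with that comparison.

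Ribosomes are assembled in the nucleolus, where RNA polymerase I transcribes the precursor of the ribosomal RNAs and small nucleolar ribonucleoproteins (snoRNPs) guide its chemical modification. Assembly factors then fold and cut the precursor and join ribosomal proteins to it, along separate routes for the small and the large subunit. The transcription factor Myc drives much of this program, and lymphocytes raise it when they leave rest and grow.

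The label of the gene list holds for most members and not for all. Srm makes spermidine, Mettl1 methylates transfer RNA, Apex1 is an endonuclease of DNA base excision repair, Pus7 makes pseudouridine in RNA and Timm8a1 serves protein import into mitochondria. These 5 growth enzymes are kept as their own group below. The sorted cells carried NK genes in every group, with Ncr1, the gene of the sorted receptor NKp46, at 665 to 1533 CPM (UMIs of a gene per 1000000 UMIs of its group). Cd3e of T cells lay at 0.725 to 5.04 CPM and Cd79a of B cells at or below 0.367 CPM. Other markers of these cells were higher. A list of 8 T cell genes summed to 187 to 295 CPM per group, with Trbc2 alone at 156 to 239 CPM. A list of 6 B cell genes summed to 35.9 to 56.25 CPM, with Ighm alone at 34.1 to 55.4 CPM. Globin Hbb-bs reached 50.7 CPM in 14-day lung and at most 0.181 CPM elsewhere. Immediate early and heat shock genes summed to 1687 to 1774 CPM in the lung groups and to 483 to 534 CPM in the blood groups.

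Promoters of members were examined for CACGTG, the core of the E-box motif to which Myc with its partner Max can bind. RefSeq promoter windows on GRCm38.p6, from 250 bases before to 50 bases after a start site, were matched for 29 of the 37 members. The motif, which reads the same on both strands, was in 7 of them (24.1%, exact binomial interval 10.3% to 43.5%), against 8.09% of the 27025 genes of the RefSeq table and 12.4% of its 4634 genes with at least 20 CPM in every group. Apart, it was in 4 of 4 growth enzymes with a window and in 3 of the other 25 members (12.0%, 2.55% to 31.2%), which is close to the 12.4% of expressed genes. Among the first 9 members of the list it was in 4 of 7 and among the other 28 in 3 of 22 (13.6%). The split was made after the matches had been seen. Among 67 other assembly factors of the small and large subunit it was in 26.9%. Searched from 100 bases before a start site to the end of the window, it was in 24.1% of members and 5.003% of all genes. There it was also in 7.94% of genes with at least 20 CPM in every group and in 20.9% of the other assembly factors. The 7 genes were Apex1, Mettl1, Pus7, Timm8a1, Nop2, Pes1 and Wdr43. The windows of 5 of them are printed 5′ to 3′ on the gene's strand with the motif in capitals, because they belong to 4 of the 5 growth enzymes and to 1 core assembly factor, Pes1.
Apex1, chr14:50924699-50924998, plus strand: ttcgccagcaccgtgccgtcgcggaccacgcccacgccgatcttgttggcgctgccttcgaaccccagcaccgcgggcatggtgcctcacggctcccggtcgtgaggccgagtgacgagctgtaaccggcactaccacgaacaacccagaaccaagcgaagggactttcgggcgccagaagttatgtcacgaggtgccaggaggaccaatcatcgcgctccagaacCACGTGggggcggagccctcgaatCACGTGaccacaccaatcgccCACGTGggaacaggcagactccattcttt
Mettl1, chr10:127041682-127041981, plus strand: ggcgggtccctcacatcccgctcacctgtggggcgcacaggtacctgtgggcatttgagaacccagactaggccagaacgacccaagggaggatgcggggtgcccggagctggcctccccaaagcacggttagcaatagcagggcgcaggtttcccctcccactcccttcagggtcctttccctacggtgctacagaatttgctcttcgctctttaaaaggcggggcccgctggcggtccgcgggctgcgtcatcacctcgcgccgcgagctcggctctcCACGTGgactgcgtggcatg
Pus7, chr5:23783662-23783961, minus strand: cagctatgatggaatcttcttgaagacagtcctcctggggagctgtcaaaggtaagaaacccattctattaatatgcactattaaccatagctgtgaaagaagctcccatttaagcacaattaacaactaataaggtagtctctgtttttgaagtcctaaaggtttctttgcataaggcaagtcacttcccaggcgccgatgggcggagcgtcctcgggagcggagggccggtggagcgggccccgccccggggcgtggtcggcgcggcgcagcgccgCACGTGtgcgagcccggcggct
Timm8a1, chrX:134541621-134541920, minus strand: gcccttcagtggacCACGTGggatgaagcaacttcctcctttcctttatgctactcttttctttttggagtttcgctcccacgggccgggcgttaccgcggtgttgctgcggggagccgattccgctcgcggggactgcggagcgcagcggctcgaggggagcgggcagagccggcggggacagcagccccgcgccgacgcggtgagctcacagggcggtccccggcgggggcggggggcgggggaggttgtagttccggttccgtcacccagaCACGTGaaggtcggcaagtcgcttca
Pes1, chr11:3963725-3964024, plus strand: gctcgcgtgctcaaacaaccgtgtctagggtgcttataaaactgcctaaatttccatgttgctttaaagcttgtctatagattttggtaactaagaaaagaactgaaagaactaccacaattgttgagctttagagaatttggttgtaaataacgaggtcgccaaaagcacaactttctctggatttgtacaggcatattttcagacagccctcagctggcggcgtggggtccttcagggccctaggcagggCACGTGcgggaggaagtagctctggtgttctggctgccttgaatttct
Apex1 carried the motif 3 times, its first letter at positions -24, 1 and 22 counted from the start site as 1. In Mettl1, Pus7 and Pes1 it began at positions 31, 29 and 3, and in Timm8a1 at -236 and 25. A match of these letters is a description and not a measured binding site.

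Summed over cells, the 37 genes held 0.215% to 0.268% of the UMIs of a group. This came to 2148 CPM in naive lung (2129 to 2167), 2220 CPM in naive blood (2203 to 2237), 2554 CPM in 6 h lung (2538 to 2571), 2676 CPM in 6 h blood (2655 to 2698), 2463 CPM in 14-day lung (2444 to 2481) and 2342 CPM in 14-day blood (2319 to 2365). Both 6 h groups were the highest and both naive groups the lowest. Npm1 and Ncl alone gave 36.1% to 42.8% of these UMIs, and without them the sums ran from 1264 CPM in naive lung to 1710 CPM in 6 h blood. Barcodes with at most 100 counts, which hold free RNA, carried the members at 2186, 2471 and 2412 CPM in the naive, 6 h and 14-day libraries.

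Gene by gene, 28 of the 37 members had their highest level in 6 h blood, 6 in 6 h lung, 2 in 14-day lung and 1 in naive blood. For 23 members naive lung was the lowest group. These ranks ignore counting error, and the ranks of all genes were not computed, so the counts only describe the members. The highest group exceeded the lowest 1.18-fold to 2.48-fold, with a median of 1.48-fold. A floor of 20 CPM was passed in every group by 20 members and in some groups by 11, and 6 (Apex1, Pus7, Nop16, Rrp12, Polr1b and Nop2) stayed under it in all 6 groups. These 3′ counts do not scale with transcript length, and levels are compared below between groups within a gene.

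**Figure D1:**
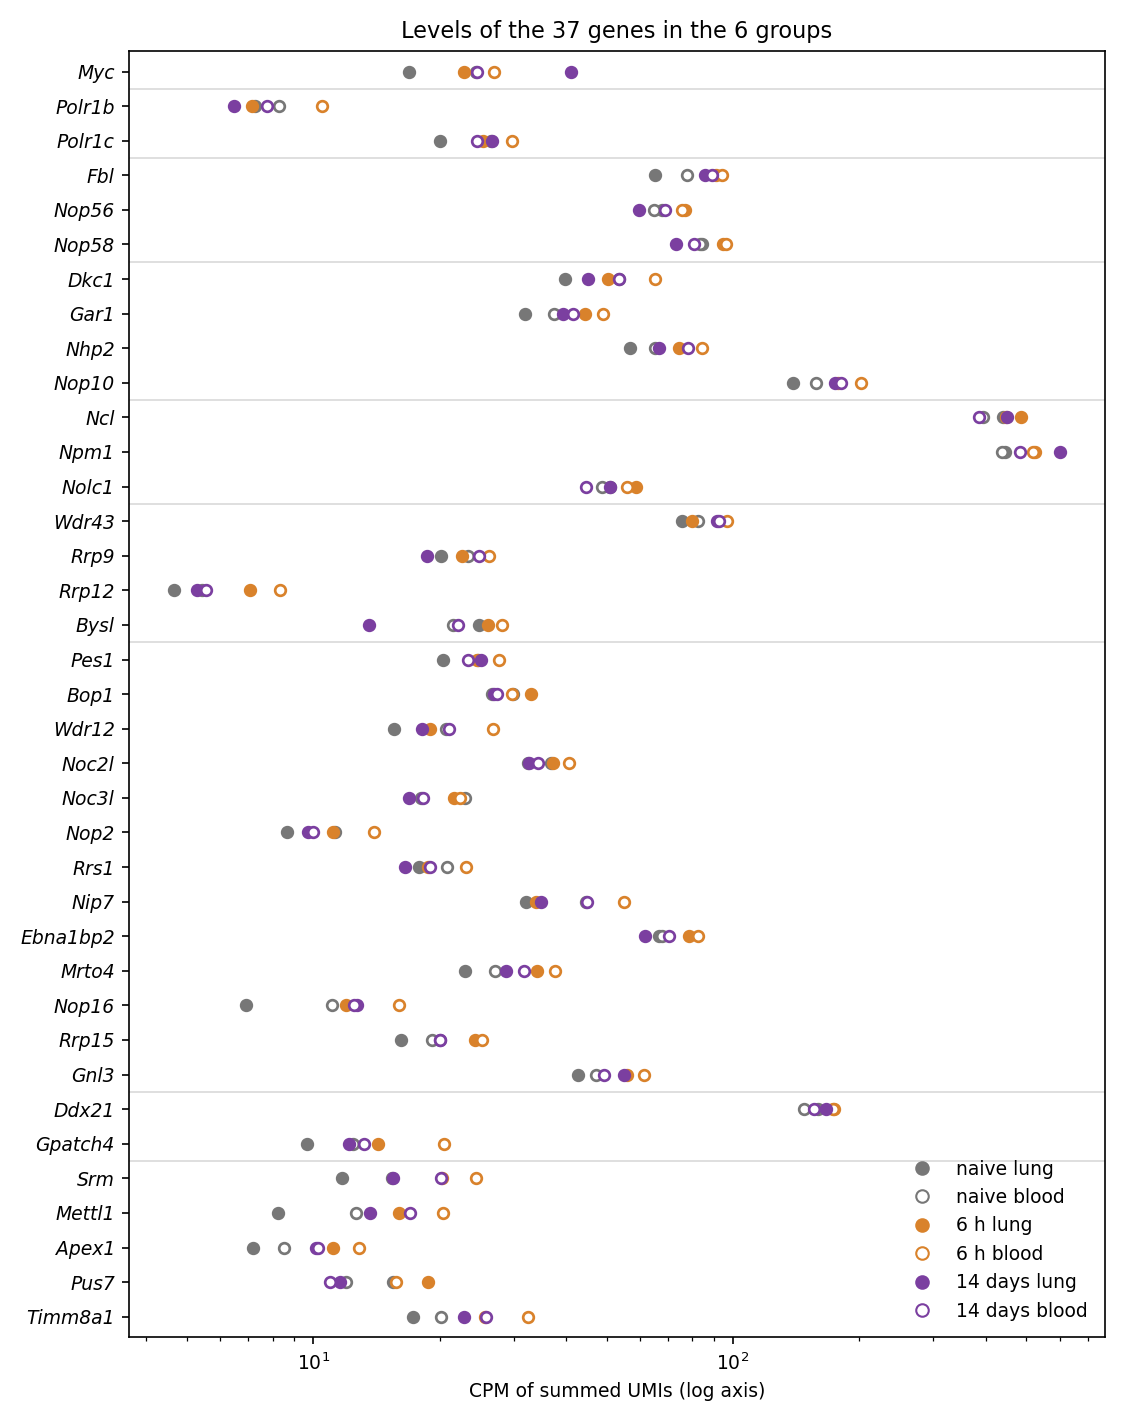
Level of each member in the 6 groups, in CPM of summed UMIs on a log axis, 1 row per gene and ordered by role from Myc at the top to the growth enzymes. Filled points are lung and open points blood. Orange points of the 6 h library lie rightmost in most rows, and Myc and Npm1 have the 14-day lung point rightmost.

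Myc itself followed another pattern than the genes of the assembly line. It lay at 16.9 CPM in naive lung, 24.4 CPM in naive blood, 22.9 CPM in 6 h lung, 26.95 CPM in 6 h blood, 41.2 CPM in 14-day lung and 24.6 CPM in 14-day blood. The 14-day lung interval, 38.8 to 43.6 CPM, overlapped no other group, and neither did that of naive lung, 15.3 to 18.7 CPM. After every cell was thinned to 3000 UMIs, a Myc UMI was found in 8.31% of 14-day lung cells and in 4.12% to 6.35% of cells in the other groups. No cell type that should lack Myc was sorted, so no background share can be given.

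RNA polymerase I was represented by 2 subunits. Polr1c, shared with RNA polymerase III, lay at 20.1 and 26.5 CPM in naive lung and blood, 25.3 and 29.7 CPM at 6 h and 26.6 and 24.5 CPM at 14 days. Polr1b, the second largest subunit, ranged from 6.46 to 10.5 CPM.

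The box C/D snoRNP proteins, which methylate ribosomal RNA, did not move as one. Fbl, the methyltransferase, lay at 65.3 and 77.7 CPM in naive lung and blood, at 91.2 and 93.9 CPM at 6 h and at 86.0 and 89.0 CPM at 14 days. Nop56, a scaffold protein, lay at 67.6 and 64.8 CPM in naive lung and blood, 76.8 and 75.6 CPM at 6 h and 59.8 and 69.0 CPM at 14 days. Nop58, its partner, lay at 84.5 and 83.3 CPM in naive lung and blood, 94.9 and 96.1 CPM at 6 h and 72.9 and 80.8 CPM at 14 days. Both scaffold proteins were thus lowest in 14-day lung, where Fbl was above its naive level.

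All 4 box H/ACA snoRNP proteins, which make pseudouridine, were lowest in naive lung and highest in 6 h blood. Dkc1, the pseudouridine synthase, lay at 39.7 and 53.3 CPM in naive lung and blood, 50.5 and 65.2 CPM at 6 h and 45.2 and 53.4 CPM at 14 days. Nhp2, a core protein of the particle, lay at 56.9 and 65.2 CPM in naive lung and blood, 74.4 and 84.4 CPM at 6 h and 66.6 and 78.2 CPM at 14 days. Gar1 ran from 31.9 to 48.96 CPM and Nop10 from 138.9 to 202 CPM.

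Among the abundant nucleolar chaperones, Npm1 (nucleophosmin) lay at 443.5 and 437 CPM in naive lung and blood, 523.5 and 519.8 CPM at 6 h and 603 and 483 CPM at 14 days. Ncl (nucleolin) lay at 440.5 and 394 CPM in naive lung and blood, 487 and 447 CPM at 6 h and 450.2 and 385 CPM at 14 days. Npm1 was thus highest in 14-day lung and Ncl in 6 h lung, and in every library both had more CPM in lung than in blood. For Npm1 the log2 ratio of lung over blood was close to 0 in the naive library, at 0.02 (-0.02 to 0.06), and at 6 h, at 0.01 (-0.02 to 0.04). Nolc1, a chaperone of snoRNPs, lay at 50.8 and 48.8 CPM in naive lung and blood, 58.8 and 55.9 CPM at 6 h and 50.9 and 44.6 CPM at 14 days. Npm1 has many processed copies in the genome, and how reads shared with them were counted is not given in the sources used here.

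Of the small subunit factors, Bysl, which acts late in maturation of the small subunit, stood out in 14-day lung. It lay at 24.8 and 21.6 CPM in naive lung and blood, 26.1 and 28.2 CPM at 6 h, 13.6 CPM in 14-day lung and 22.1 CPM in 14-day blood. The 14-day lung interval of 12.3 to 15.02 CPM overlapped none of the others. Wdr43, a part of the small subunit processome, lay at 75.4 and 82.5 CPM in naive lung and blood, 79.9 and 96.6 CPM at 6 h and 91.7 and 92.4 CPM at 14 days. Rrp9, a protein of the U3 snoRNP, lay at 20.2 and 23.4 CPM in naive lung and blood, 22.6 and 26.2 CPM at 6 h and 18.7 and 24.7 CPM at 14 days. Both had fewer CPM in lung than in blood in each library, though for Wdr43 the interval of the 14-day ratio spanned 0. Rrp12 ranged from 4.65 to 8.33 CPM.

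The 13 large subunit factors were the largest role group. Nip7, which acts in maturation of the large subunit, lay at 32.04 and 44.6 CPM in naive lung and blood, 33.9 and 54.99 CPM at 6 h and 34.9 and 44.9 CPM at 14 days. In each library it was thus lower in lung, and its lung levels were close to each other. Pes1, Bop1 and Wdr12 together form the PeBoW complex. Bop1 lay at 29.9 and 26.7 CPM in naive lung and blood, 32.9 and 29.7 CPM at 6 h and 26.9 and 27.3 CPM at 14 days. Wdr12 lay at 15.6 and 20.7 CPM in naive lung and blood, 18.9 and 26.8 CPM at 6 h and 18.1 and 21.1 CPM at 14 days. Bop1 was highest in 6 h lung and Wdr12 in 6 h blood, so the partners of 1 complex did not share an order, and Pes1 ranged from 20.4 to 27.7 CPM.

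Mrto4, a factor related to the stalk protein of the large subunit, lay at 22.97 and 27.02 CPM in naive lung and blood, 34.2 and 37.7 CPM at 6 h and 28.8 and 31.8 CPM at 14 days. Rrp15 lay at 16.2 and 19.2 CPM in naive lung and blood, 24.3 and 25.2 CPM at 6 h and 20.05 and 20.07 CPM at 14 days. Both had their 2 highest levels at 6 h and their lowest in naive lung. Noc2l and Noc3l are partners in transport of the early large subunit. Noc2l lay at 32.4 and 36.8 CPM in naive lung and blood, 37.3 and 40.6 CPM at 6 h and 32.6 and 34.3 CPM at 14 days. Noc3l lay at 18.07 and 22.9 CPM in naive lung and blood, 21.6 and 22.4 CPM at 6 h and 16.9 and 18.2 CPM at 14 days, the only member highest in naive blood. Rrs1, which brings the 5S ribonucleoprotein to the large subunit, lay at 17.8 and 20.9 CPM in naive lung and blood, 18.7 and 23.1 CPM at 6 h and 16.6 and 18.95 CPM at 14 days. Gnl3, also called nucleostemin, ranged from 42.8 to 61.3 CPM, Ebna1bp2 from 61.8 to 82.6 CPM, Nop16 from 6.90 to 16.03 CPM and Nop2 from 8.65 to 13.9 CPM.

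Of the growth enzymes, Srm lay at 11.7 and 15.4 CPM in naive lung and blood, 20.3 and 24.4 CPM at 6 h and 15.4 and 20.1 CPM at 14 days. Mettl1 lay at 8.22 and 12.6 CPM in naive lung and blood, 16.01 and 20.4 CPM at 6 h and 13.7 and 17 CPM at 14 days. The range of Mettl1, 2.48-fold, was the widest of the 37. Timm8a1 lay at 17.3 and 20.1 CPM in naive lung and blood, 25.6 and 32.4 CPM at 6 h and 22.8 and 25.7 CPM at 14 days. Apex1 ranged from 7.16 to 12.9 CPM. All 4 were lowest in naive lung and highest in 6 h blood, while Pus7 ranged from 10.98 CPM in 14-day blood to 18.8 CPM in 6 h lung.

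Gpatch4, a nucleolar protein with a G-patch domain, lay at 9.67 and 12.4 CPM in naive lung and blood, 14.2 and 20.5 CPM at 6 h and 12.2 and 13.2 CPM at 14 days. The helicase Ddx21, which couples RNA polymerase I to ribosomal RNA processing, ranged from 147 to 174 CPM and had the narrowest relative range of the members, 1.18-fold.

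The first comparison asked how the members stood 6 h after tumor cells were injected. Nearly all of them lay higher than in the naive library, by a modest amount and in both tissues. Of all 37 members, 36 lay above 0 on the log2 scale in lung and 36 in blood, with medians of 0.28 and 0.30. In lung, 27 members passed the floor of 20 CPM in the higher group, and all 27 lay above 0, 24 of them with an interval above 0. Their median log2 ratio was 0.26, with a range of 0.07 to 0.80, against a median of -0.08 over 6404 genes. In blood, 30 of 31 members lay above 0, 28 with their interval, with a median of 0.27 and a range of -0.03 to 0.73, against -0.06 over 6527 genes. The share of all genes with an interval above 0 was not computed, so the interval counts only describe the members. Some genes passed the floor through the 6 h group alone, namely Srm, Timm8a1, Rrp15, Noc3l and Myc in lung and Srm, Mettl1, Gpatch4 and Rrp15 in blood. With 20 CPM asked of both groups, a choice made after seeing the data, the medians were 0.22 over 22 members in lung and 0.23 over 27 in blood, and 22 and 26 lay above 0.

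A ratio past 1.5-fold was reached by few. In lung, Srm at 1.74-fold and Rrp15 at 1.503-fold passed it, 2 of 27 members, where 0.359% of all genes were past 1.5-fold higher and 0.0625% lower. In blood, 4 of 31 passed (Gpatch4, Timm8a1, Mettl1 and Srm, between 1.58-fold and 1.65-fold), where 0.214% of all genes were past it higher and 0.153% lower. Of these, only Timm8a1 in blood had 20 CPM in both groups, so the other calls rest on genes that the floor admitted because they were higher at 6 h, and the counts are a description. No member passed in the lower direction in either tissue. With each ratio taken against the all-gene median, 4 members passed in lung and 4 in blood, and 0.593% of all genes were then past 1.5-fold higher in lung and 0.0312% lower, with 0.306% and 0.04596% in blood. With no floor, 6 of 37 passed in lung and 6 in blood. The share of all genes past it with no floor was not computed, so these 2 counts only describe the members. All of the members that passed with the floor belong to the first 9 of the list, and without those 9 the count was 0 in both tissues. Cells thinned to 3000 UMIs gave a count of 1 in lung and 2 in blood, as did leaving out the 5% of cells with most UMIs.

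The direction nevertheless was not limited to the first 9. Their median log2 ratio over all 9 was 0.59 in lung and 0.60 in blood, and that of the other 28 members was 0.24 in both, with 27 of the 28 above 0 in each tissue. Among members over the floor, Srm had the largest ratio in lung, 0.80 (0.60 to 1.00), followed by Rrp15 at 0.59 (0.41 to 0.77) and Mrto4 at 0.57 (0.43 to 0.72). The smallest ratios among them were those of Bysl at 0.07 (-0.08 to 0.22), Nip7 at 0.08 (-0.05 to 0.22) and Wdr43 at 0.08 (-0.0015 to 0.17).

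In blood the largest ratios belonged to Gpatch4 at 0.73 (0.52 to 0.93), Timm8a1 at 0.69 (0.53 to 0.85) and Mettl1 at 0.69 (0.49 to 0.89). Noc3l at -0.03 (-0.20 to 0.13), Noc2l at 0.14 (0.01 to 0.27) and Myc at 0.14 (-0.02 to 0.30) were the smallest. By role, the 4 box H/ACA proteins had medians of 0.37 in lung and 0.37 in blood, the 3 box C/D proteins 0.18 and 0.22, the 3 chaperones 0.21 and 0.20 and the 3 small subunit factors over the floor 0.08 and 0.23.

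Other ribosome assembly genes had smaller median ratios. Of 35 further small subunit factors, 26 were over the floor in lung and 27 in blood, none passed 1.5-fold in either direction, and their medians were 0.14 and 0.08. For 43 further large subunit factors, 35 over the floor in lung and 36 in blood, again none passed and the medians were 0.08 and 0.12. The RNA polymerase I apparatus had medians of 0.01 and 0.09 over 8 and 9 genes. Myc-linked growth genes outside the nucleolus had medians of 0.22 in both tissues over 26 and 25 genes, also with none past 1.5-fold. The Myc network had medians of -0.20 and -0.14 over 7 genes, with Mxi1 past 1.5-fold lower in blood, and the ribosomal protein genes 0.19 and 0.14 over 79 genes with none past it. Whether the members and these lists differ was not tested.

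Markers of myeloid cells also differed between these libraries. The 8 genes of that list summed to 16.1 and 27.7 CPM in naive lung and blood, 30.5 and 51.7 CPM at 6 h and 19.3 and 94.7 CPM at 14 days. Lyz2, the lysozyme gene of macrophages and neutrophils, lay at 3.37 and 0.600 CPM in naive lung and blood, 26.1 and 44.9 CPM at 6 h and 13.5 and 89.3 CPM at 14 days. Lyz2 made up most of the sum in the 6 h and 14-day groups. The rest of the list together was lower in those groups than in the naive library. In the naive library S100a9 was the highest gene of the list, at 5.24 CPM in lung and 13.3 CPM in blood. The part of these markers in the 6 h ratios was not tested.

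**Figure D2:**
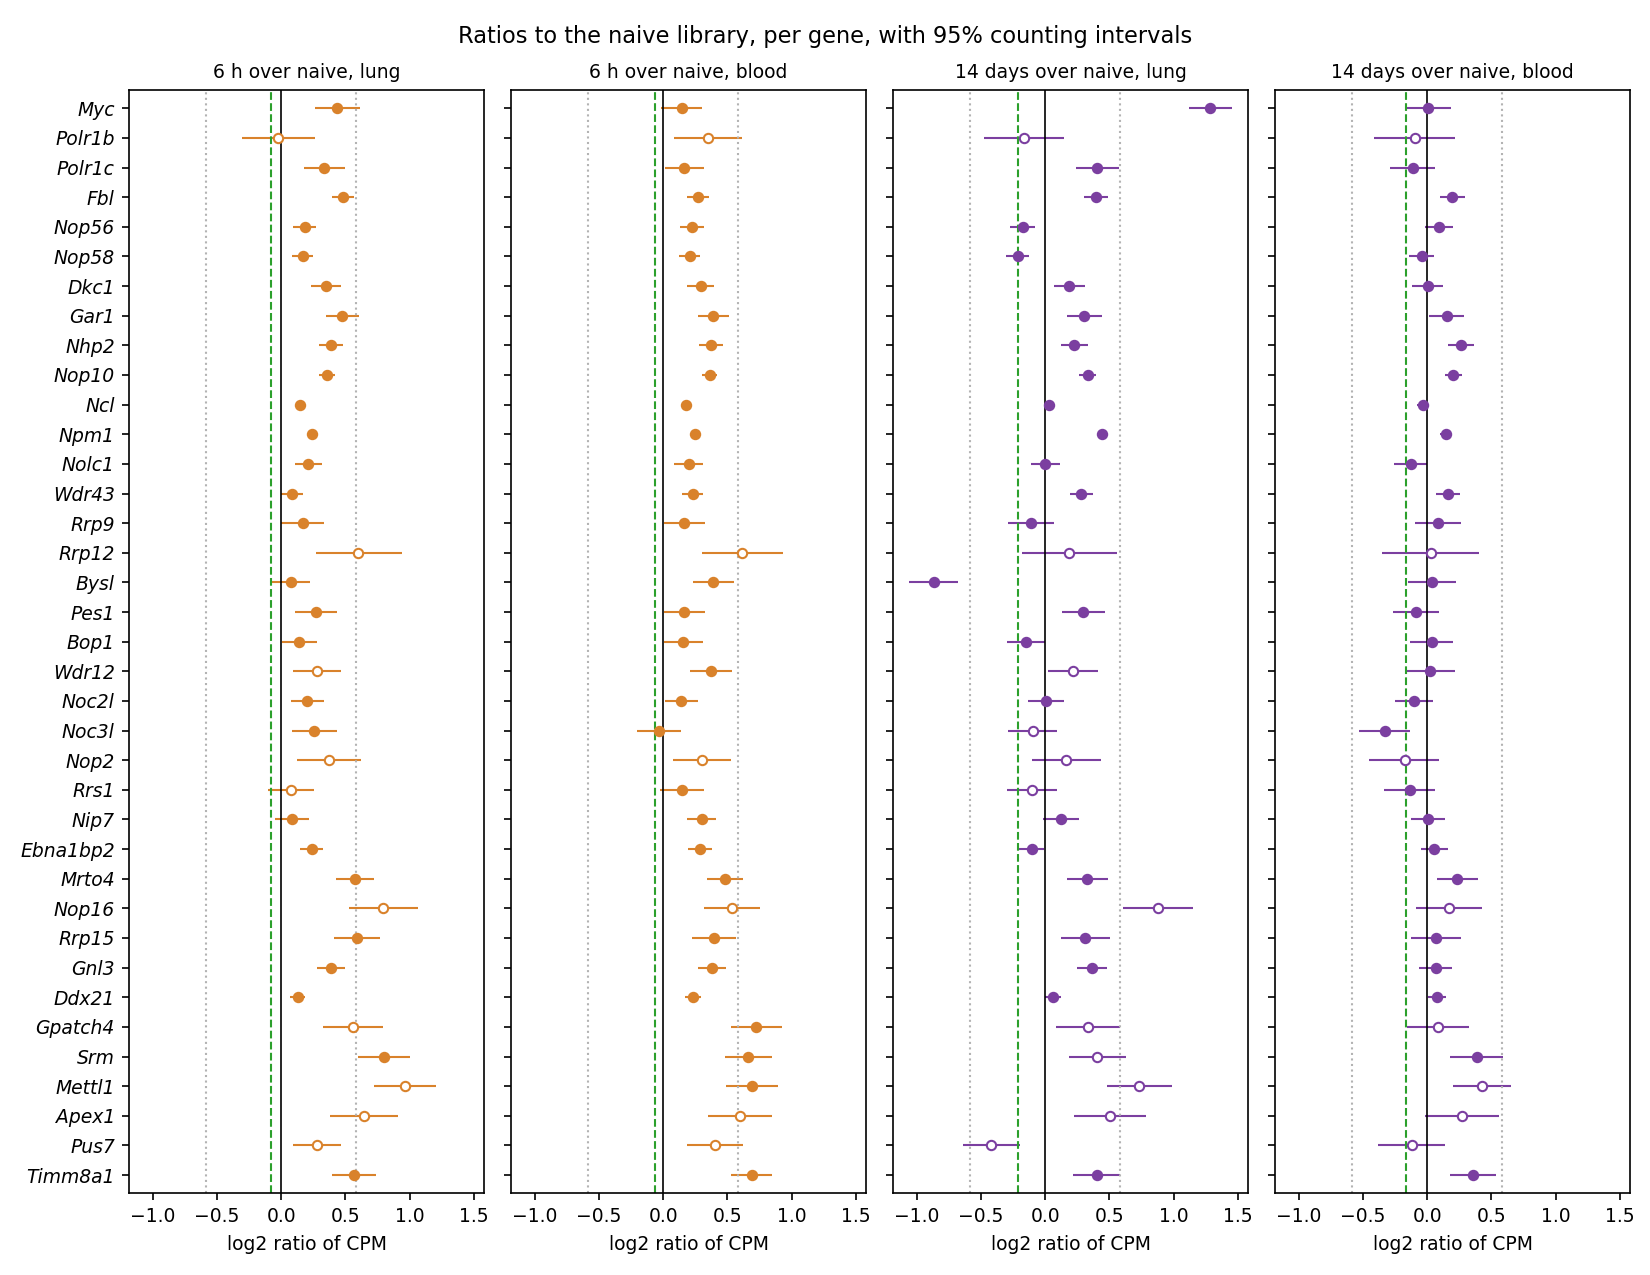
Log2 ratio of CPM to the naive library for each member, in lung and blood at 6 h and at 14 days, with 95% counting intervals. Filled points passed 20 CPM in the higher group and open points did not, dotted lines mark 1.5-fold and the green dashed line marks the median of all genes. At 6 h nearly every point lies right of 0, and in 14-day lung Myc lies far right and Bysl far left.

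At 14 days the same ratios, which share the naive library with those at 6 h, were less uniform. In lung, 25 members passed the floor, 19 lay above 0 and 6 below, and the median was 0.23 with a range of -0.87 to 1.28. The median of all genes lay on the other side of 0, at -0.21 over 6482 genes. Relative to that median the members' median was 0.44, and 24 of 25 lay above it. With cells thinned to 3000 UMIs the lung median was 0.10. Over all 37 members with no floor, 27 lay above 0 and 10 below, with a median of 0.21.

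Myc was the only member over the floor past 1.5-fold higher in 14-day lung and Bysl the only one lower, where 4.37% of all genes were past it higher and 11.3% lower. Myc was 2.43-fold higher than in naive lung, a log2 ratio of 1.28 (1.12 to 1.45), and in blood its ratio was 0.01 (-0.17 to 0.18). Bysl fell by 0.87 on the log2 scale in lung (-1.06 to -0.68), and its ratio in blood was 0.04 (-0.15 to 0.22). Myc passed the floor only at 14 days and Bysl only in the naive library, and with 20 CPM asked of both groups no member was past 1.5-fold either way. Whether the ratio of either gene differs between the tissues was not tested.

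Other members of 14-day lung moved less. Npm1 had a ratio of 0.44 (0.41 to 0.48), Polr1c of 0.41 (0.24 to 0.57) and Fbl of 0.40 (0.30 to 0.49). Nop58 had -0.21 (-0.30 to -0.12) and Nop56 -0.18 (-0.28 to -0.08), so that the 3 box C/D proteins went in different directions in CPM. Relative to the all-gene median, Nop58 and Nop56 stood at 0.001 and 0.04, close to all genes, and Fbl at 0.61. Measured against the median of all genes, Myc, Npm1, Polr1c, Timm8a1 and Fbl were past 1.5-fold, 5 of 25 members, while 7.65% of all genes were then past it higher and 4.15% lower. With no floor, Mettl1 and Nop16 joined Myc past 1.5-fold higher, and the share of all genes was then not computed.

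In 14-day blood, 29 members passed the floor and none was past 1.5-fold in either direction, where 0.718% of all genes were past it higher and 2.75% lower, or 2.12% and 0.382% relative to their median. The members' median was 0.05 with a range of -0.33 to 0.39, and the median of all 6549 genes was -0.17, which put the members at 0.22 relative to it. The largest ratios over the floor were those of Srm at 0.39 (0.18 to 0.59), Timm8a1 at 0.36 (0.17 to 0.54) and Nhp2 at 0.26 (0.16 to 0.36). Noc3l had the smallest ratio at -0.33 (-0.53 to -0.13), Rrs1 had -0.14 (-0.34 to 0.06) and Nolc1 -0.13 (-0.26 to -0.0019).

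The neighbours of the members at 14 days went several ways in CPM in lung. Cytosolic ribosomal protein genes, the structural parts of the ribosome, were past 1.5-fold higher in 71 of 79 genes over the floor, with a median of 0.78, and in blood in 7 of 79 with a median of 0.42. They took 12.9% of all UMIs in naive lung and 22.5% in 14-day lung, and 13.7% and 18.5% in blood. With totals that omit ribosomal protein and mitochondrial genes, the members' lung median was 0.39 in place of 0.23. Further small subunit, large subunit and RNA polymerase I genes had medians of -0.10, -0.15 and -0.21 in lung, with none past 1.5-fold of 23, 33 and 8 over the floor. In blood their medians were -0.14, -0.08 and -0.12, again with none past it. The median of all genes was -0.21 in lung and -0.17 in blood. Against it, none of these lists lay lower in either tissue, and the RNA polymerase I genes stood level with it in lung.

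In the Myc network, 4 of 7 genes over the floor were past 1.5-fold lower in 14-day lung. Mxi1, Mxd1 and Mxd4, which compete with Myc for Max, fell by 0.75, 0.63 and 0.62, from 50.4, 231 and 204 CPM in naive lung to 29.99, 149 and 133 CPM. Mga, the fourth, was at the list's median of -0.61. Taken against the all-gene median, none of these 4 reached 1.5-fold. Max itself had a ratio of 0.07, at 82.9 and 86.95 CPM. In blood, at 20.8 CPM for Mxi1 and 70.4 CPM for Mxd1 in the naive library, the network's median was -0.24 with none past 1.5-fold. Of the growth genes outside the nucleolus, none of 25 passed, and the largest ratios were those of Hspe1, C1qbp and Eif5a at 0.58, 0.50 and 0.49. Nsa2, a large subunit factor, had 0.55.

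The 14-day lung group stood apart in other ways that move with these ratios. The red cell and platelet genes summed to 89.2 CPM there and to at most 0.408 CPM in the other groups, and heat shock genes Hspa1a and Hspa1b reached 22.1 and 41.9 CPM against at most 1.87 and 4.06 CPM elsewhere. Genes of type 1 innate lymphoid cells were higher at 14 days in both tissues, summing to 105.5 CPM in lung and 84.1 CPM in blood, against 41.5 and 35.3 CPM in the naive library and 43.4 and 45.2 CPM at 6 h. Markers of mammary tumor epithelium summed to 2.20 CPM. The part of these differences in the ratios of Myc and Bysl was not tested.

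Between tissues, most members lay somewhat lower in lung than in blood. In all 3 libraries 23 of the 37 were lower in lung, and 5 (Pus7, Ncl, Npm1, Nolc1 and Ddx21) were higher. The order was not the same in all libraries for the other 9, which were Bop1, Bysl, Gnl3, Myc, Nop16, Nop56, Nop58, Pes1 and Polr1c. These counts use the order alone. Of all 37, 24, 21 and 11 had an interval below 0 in the naive, 6 h and 14-day libraries, and 5, 3 and 6 had one above 0. How many of all genes kept 1 order or had such intervals was not computed, so the counts only describe the members. The median log2 ratio of lung over blood was -0.20 over 27 members in the naive library, -0.14 over 31 at 6 h and -0.07 over 27 at 14 days. The corresponding medians over all genes were -0.09, -0.09 and -0.10. Members thus lay 0.11 and 0.05 below all genes in the naive and 6 h libraries and 0.03 above them at 14 days.

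None of the 27 members over the floor was past 1.5-fold between tissues in naive mice, where 6.46% of all genes were past it higher in lung and 3.06% lower. With no floor, Nop16 at -0.68 (-0.96 to -0.41) and Mettl1 at -0.62 (-0.88 to -0.37) were past it lower. The share of all genes with no floor was not computed. Over the floor, the lowest were Myc at -0.53 (-0.71 to -0.35), Nip7 at -0.48 (-0.61 to -0.35) and Dkc1 at -0.43 (-0.55 to -0.31). The highest over the floor were Bysl at 0.20 (0.04 to 0.37), Bop1 at 0.16 (0.02 to 0.31) and Ncl at 0.16 (0.12 to 0.20). At 6 h Nip7 alone passed, lower in lung at -0.70 (-0.81 to -0.58), where 6.12% of all genes were higher and 2.49% lower. Over the floor, Gpatch4 followed at -0.53 (-0.71 to -0.34) and Wdr12 at -0.50 (-0.66 to -0.34), and Bop1, Ncl and Nolc1 were the highest at 0.15, 0.12 and 0.07.

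At 14 days Myc and Bysl stood farthest from 0. Myc passed 1.5-fold higher in lung at 0.75 (0.58 to 0.91) and Bysl lower at -0.70 (-0.91 to -0.49), 1 member each way of 27 (Bysl through its blood level alone, being under 20 CPM in lung), where 5.58% of all genes were past it higher and 3.42% lower. No member was past it higher after thinning to 3000 UMIs or without the 5% of cells with most UMIs. Npm1 at 0.32 (0.28 to 0.36) and Ncl at 0.22 (0.18 to 0.27) came next, and Rrp9 and Srm stood low at -0.41 and -0.38. Against the all-gene median the counts of members were the same in the 3 libraries, while 7.79%, 7.32% and 7.005% of all genes were past 1.5-fold higher and 1.87%, 1.49% and 2.10% lower. The sums of immediate early and heat shock genes given above divide lung from blood in every library, and their part in these ratios was not tested.

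Tissue was also tested over the 3 libraries, an analysis added after seeing the data. The summed counts of the 6 groups were fitted by edgeR's quasi-likelihood test with terms for tissue and library, so that lung and blood were paired within a library. The libraries differ in time point, and the spread that the test uses therefore holds any change of the tissue difference with time. Nip7 was lower in lung, at 33.6 against 48.2 CPM in the mean of the 3 libraries, with a log2 difference of -0.43 (SE 0.08, adjusted p = 0.0266 over all genes, edgeR). Ncl was higher in lung, at 459 against 409 CPM, with a log2 difference of 0.25 (SE 0.06, adjusted p = 0.0365, edgeR). Both kept their direction in 3 of 3 libraries.

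These were 1 member each way of 28 tested, where 14.4% of 6410 genes were called higher and 9.95% lower, a larger share than among the members, whose difference from other genes was not tested. Before adjustment 10 of the 28 had a p under 0.05 in edgeR, and the share of all genes was not computed. Myc had a log2 difference of 0.08 (SE 0.27) and Bysl of -0.10 (SE 0.16), and neither passed, at adjusted p of 0.848 and 0.667 in edgeR. The members' median was -0.05 and that of all genes -0.01 on the scale of this fit, whose library factors differ from plain totals. DESeq2 called the same 2 genes. Neither gene was called without the naive library or without the 6 h library, when no member was. Of all genes, 325 were called higher and 69 lower of 6410 without the naive library. Without the 6 h library 324 were called higher and 67 lower of 6431. Without the 14-day library 7 members were called higher and 11 lower of 29, where 2116 of 6540 genes were called higher and 1830 lower.

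A sum over cells does not say whether every cell or a share of cells carries a difference. Cells were therefore thinned to 3000 UMIs each, which left out 6 to 86 shallower cells per group. The members then had a median of 5 UMIs per cell in naive lung, naive blood and 14-day blood and of 6 in the other 3 groups. The 90th percentile was 10 UMIs in naive lung and 13 in 6 h blood, and the highest single cell of a group held 47 to 62. The variance was 3.25 to 4.37 times the mean, where counts drawn at an equal rate in every cell would give a value close to 1.

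Cells above 11 UMIs, the 90th percentile of naive blood, made up 7.55% of naive lung (6.71% to 8.46%, exact binomial), 9.11% of naive blood (8.27% to 10.01%), 12.4% of 6 h lung (11.4% to 13.4%), 15.4% of 6 h blood (14.1% to 16.8%), 11.6% of 14-day lung (10.5% to 12.7%) and 11.3% of 14-day blood (10.01% to 12.8%). The cut was taken from naive blood, so the share of that group was largely set by construction and its interval tests nothing. The interval of naive lung lay below those of both 6 h groups. These intervals cover the counting of cells within a library only. Time point and library cannot be told apart, so whether the shares differ between time points was not tested. This class is a range cut from a score and not a cell type, and 20.3% to 28.8% of cells lay within 3 UMIs of the cut.

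The members varied together across cells within every group. For each gene, cells were ranked by the sum of the other members, and its level in the highest 10% was set against the rest. Of 20 members with at least 20 CPM in every group, 19 were past 1.5-fold in the mean of the 6 groups, where 6.31% of 5708 genes were past it, with a median log2 ratio of 1.46 against -0.11 for all genes. Polr1c was the exception at 0.53. Over all 37 members, 36 were past 1.5-fold and 37 lay above 0 in all 6 groups. Clustering on these cells helped to choose some members, so the values describe the list and no test was made.

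Apex1, Mettl1 and Srm showed the strongest contrast, 10.5-fold, 10.3-fold and 9.95-fold, and the other 6 of the first 9 members lay between 4.09-fold and 6.93-fold. Among members chosen for function, Rrp12 reached 5.38-fold, Gnl3 3.62-fold, Dkc1 3.26-fold and Fbl 3.14-fold. The abundant chaperones differed less, Ncl 2.31-fold and Npm1 2.28-fold, and Nop10 stood at 1.74-fold. Myc had the widest range over groups, from 0.26 on the log2 scale in naive lung to 1.80 in naive blood.

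**Figure D3:**
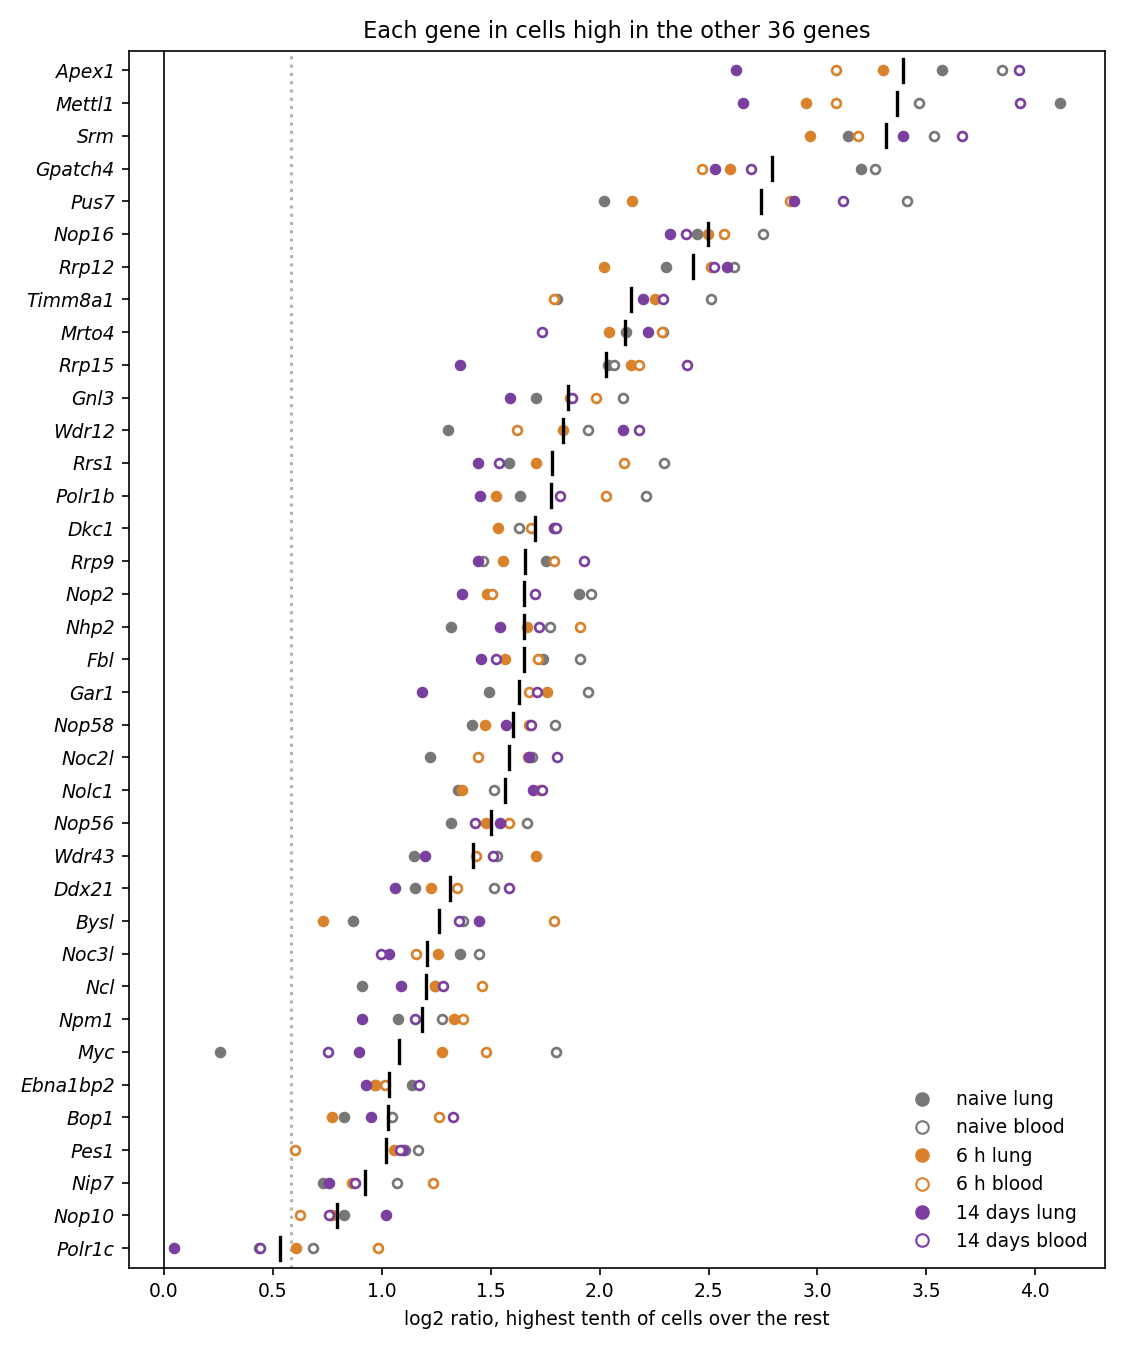
Log2 ratio of each member between the 10% of cells highest in the sum of the other 36 members and the remaining cells, after thinning to 3000 UMIs. Points are the 6 groups, black bars their mean and the dotted line 1.5-fold. All points lie right of 0, and the growth enzymes Apex1, Mettl1 and Srm lie farthest right.

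Genes outside the list that varied most like the members were, in order, Crtam (a surface receptor of activated lymphocytes) at 5.14-fold, Ppa1, Timm9, C1qbp, Mybbp1a, Phgdh, Ppp1r14b, Mdn1, Tnfrsf9 (4-1BB) and Hspa9 at 2.99-fold, as means over the 6 groups. Most-like genes thus included mitochondrial and metabolic genes beside the nucleolar Mybbp1a and the large subunit factor Mdn1. At the other end stood Angpt1 at -1.80, Nfia at -1.68 and Map2k6 at -1.67 on the log2 scale. Of the other lists, 14 of 22 further small subunit factors, 14 of 29 large subunit factors and 20 of 23 Myc-linked growth genes outside the nucleolus were past 1.5-fold, against 1 of 8 RNA polymerase I genes, 2 of 79 ribosomal protein genes and 0 of 8 NK markers. In the Myc network 0 of 6 were past it higher and 1 lower.

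The cells highest in the members differed in other measures. They had more UMIs before thinning, medians of 6833 to 9409 against 5893 to 7345 in the rest, and held 25.2% to 28.1% of all member UMIs. Cycling cells, those with at least 2 UMIs over 12 cell cycle genes, made up 4.76% to 7.73% of them against 3.34% to 3.93% of the rest. These cell cycle UMIs were counted before thinning, so the shares depend on depth. Fewer of them had a UMI of Itgam, the gene of CD11b that marks differentiated NK cells, 20.1% to 41.5% against 40.3% to 62.6%. A UMI of Cd27, the gene of a surface receptor of less differentiated NK cells, was found in 8.91% to 21.3% of them and in 11.2% to 15.7% of the rest. That share was lower in the high cells of naive lung (8.91% against 11.2%) and 14-day blood (9.18% against 11.7%), close in naive blood (14.4% against 14.3%) and 6 h blood (16.1% against 15.7%), and higher in those of 6 h lung (21.3% against 12.7%) and 14-day lung (16.4% against 12.3%). A Myc UMI was found in 7.80% to 17.2% of them and in 3.71% to 7.32% of the rest.

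Cell classes were then gated by UMIs of Cd27, which marks less differentiated NK cells, and Itgam. Cells with Cd27 and no Itgam held more of the members than cells with Itgam and no Cd27 in all 6 groups, at 2431 to 3476 CPM against 2018 to 2482 CPM. Of 30 members over the floor, 29 lay above 0 in the mean of the 6 groups, with a median log2 ratio of 0.32, against -0.08 for all genes. Myc at 1.15, Srm at 0.97, Mettl1 at 0.72, Timm8a1 at 0.70 and Npm1 at 0.64 were past 1.5-fold, 5 of 30, where 2.58% of all genes were past it higher. Of these, only Timm8a1 and Npm1 had 20 CPM in both classes in the mean of the 6 groups. The floor admitted Myc, Srm and Mettl1 through the class where they were higher, so the count is a description. Bysl at -0.13 was the exception in direction. Median depth was 6658 to 9101 UMIs in the first class and 5900 to 7434 in the second, and the detection of either gene depends on depth.

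The contrast was smallest in 14-day blood. Its summed log2 ratio was 0.11 (0.06 to 0.16), against 0.34 and 0.35 in naive lung and blood, 0.59 and 0.49 at 6 h and 0.55 (0.52 to 0.58) in 14-day lung. Cells with neither gene, the shallowest class at medians of 5184 to 6452 UMIs, also held more of the members, 2494 to 3129 CPM, than cells with both, 2068 to 2615 CPM. Cells with both genes and cells with Itgam alone were thus the low classes, although they differ in depth.

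Within each of the 4 gated classes the members' sum was higher at 6 h than in the naive library. In lung the summed log2 ratio over naive was 0.42 (0.37 to 0.47) in cells with Cd27 only, 0.31 (0.27 to 0.35) with both, 0.17 (0.15 to 0.19) with Itgam only and 0.24 (0.20 to 0.28) with neither. In blood the ratios were 0.36 (0.32 to 0.41), 0.29 (0.25 to 0.32), 0.23 (0.20 to 0.25) and 0.22 (0.18 to 0.27) in the same order. Between 33 and 35 of the 37 members lay above 0 in each class of either tissue.

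At 14 days the ratios in lung were smaller than at 6 h in each class, and in blood the classes did not share a direction. In lung the summed ratio was 0.26 (0.21 to 0.31) in cells with Cd27 only and 0.19 (0.16 to 0.23) with neither, but 0.05 (0.02 to 0.07) with Itgam only and 0.07 (0.03 to 0.11) with both. In blood cells with Cd27 only it was -0.15 (-0.21 to -0.09), where 12 of 37 members lay above 0. The other blood classes lay above 0, at 0.12 (0.08 to 0.16) with both, 0.08 (0.06 to 0.11) with Itgam only and 0.05 (0.01 to 0.10) with neither. The share of lung cells with Cd27 only was 6.53% in the naive library and 13.5% at 14 days, and that of cells with Itgam only 61.6% and 47.0%.

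In lung, each of these classes held more Myc at 14 days. Its level went from 33.2 CPM (25.2 to 42.9) to 72.1 CPM (64.8 to 80.1) in cells with Cd27 only, from 25.5 CPM (20.6 to 31.2) to 47.0 CPM (40.7 to 54.1) with both, from 12.8 CPM (11.1 to 14.8) to 22.4 CPM (19.9 to 25.2) with Itgam only and from 16.5 CPM (12.6 to 21.2) to 49.0 CPM (43.9 to 54.5) with neither. The intervals of the 2 time points did not overlap in any class. Bysl was lower in 14-day lung in each class, at 10.8 to 15.3 CPM against 21.7 to 28.1 CPM in naive lung. Both genes were followed here for their pooled ratios, and the classes divide the same UMIs, so they add no separate support. How many of all genes had intervals apart was not computed, here or for the group levels above.

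**Figure D4:**
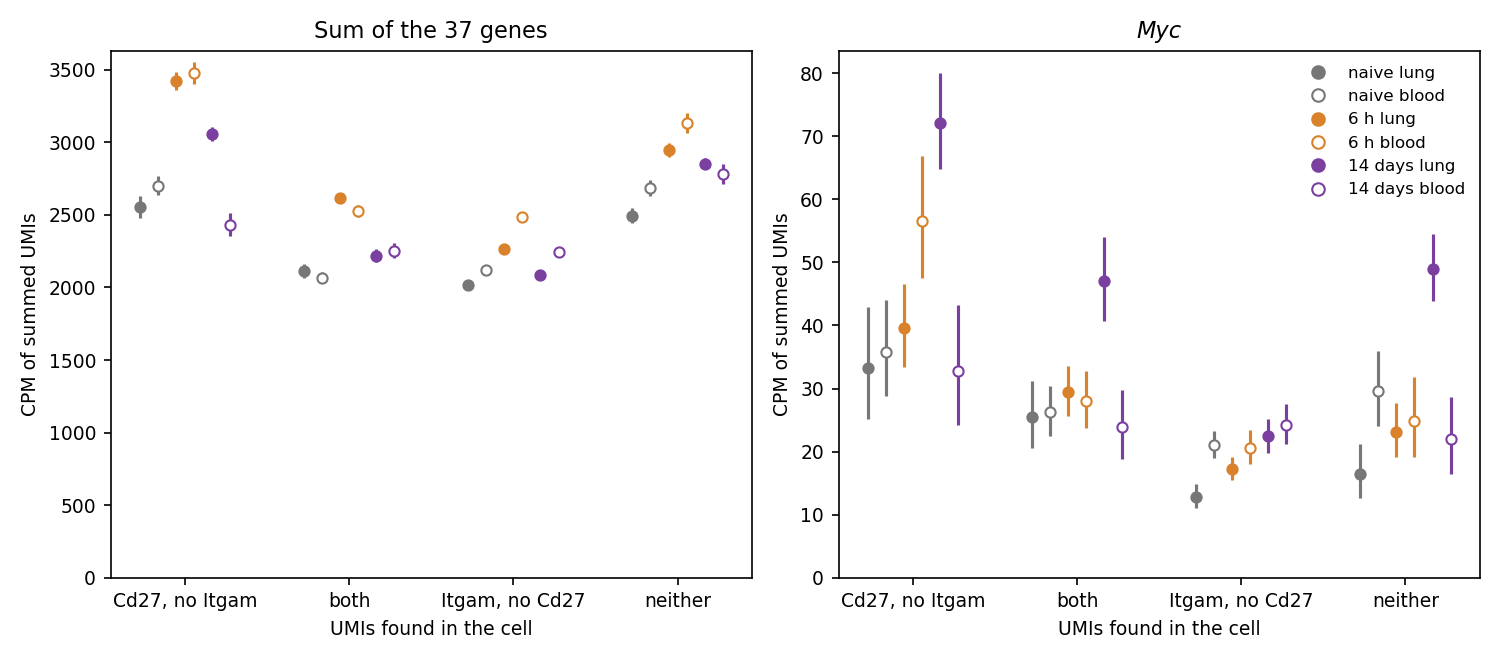
CPM of summed UMIs in 4 classes of cells defined by UMIs of Cd27 and Itgam, for the sum of the 37 members and for Myc, with 95% Poisson intervals. Filled points are lung and open points blood. Cells with Cd27 and no Itgam and cells with neither hold more of the members, and Myc in 14-day lung lies highest in 3 classes.

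Cells with an Itga1 or Pmepa1 UMI, genes linked to residency in tissue and to transforming growth factor beta, were 48.5% of 14-day lung cells. They held 2636 CPM of the members against 2263 CPM in the remaining cells, with median depths of 7562 and 6599 UMIs. None of 23 members over the floor was past 1.5-fold, where 4.45% of all genes were past it higher. The members' median was 0.20, against -0.06 for all genes. Myc at 0.46, Npm1 at 0.45 and Rrp15 at 0.42 were the highest. In the cells with neither gene Myc was at 34.3 CPM (31.2 to 37.6), and at 17.5 CPM (15.7 to 19.5) in the same class of naive lung. Detection of either gene depends on depth, and the part of these classes in the Myc ratio was not tested.

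Cells with a Myc UMI held more of the other 36 members in all 6 groups, with summed log2 ratios of 0.21 in naive lung and 0.38 to 0.46 elsewhere. All 30 members over the floor lay above 0, with a median of 0.39 against -0.05 for all genes. Srm at 0.90, Mettl1 at 0.76, Pus7 at 0.75 and Gnl3 at 0.74 were past 1.5-fold, where 0.69% of all genes were past it higher. Of these, only Gnl3 had 20 CPM in both classes in the mean of the 6 groups. The floor admitted Srm, Mettl1 and Pus7 through the cells with a Myc UMI, where they were higher, so the calls are a description. These cells were also deeper, with medians of 6922 to 9171 UMIs against 5833 to 7312. Cycling cells differed less. Srm at 0.74 alone of 29 members was past 1.5-fold, where 2.47% of all genes were past it higher. The members' median was 0.16 with 26 of 29 above 0, and the median of all genes was -0.07. Srm, too, had 20 CPM only in the class where it was higher, the cycling cells. Cycling cells were also deeper, with medians of 8178 to 12214 UMIs against 5852 to 7426 in the other cells.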

How the data were processed

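The data are 3 droplet libraries of NK cells. Per barcode, the authors deposited raw UMI counts for genes and antibody tags (each value a count), made with Cell Ranger on GRCm38.p6 and without normalization. The protocol names version 7.0.1 of Cell Ranger and the file headers 7.1.0, and whether reads within introns were counted is not given in the sources used here. The submitters' notes also name Seurat 5.0, which was not used here.

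Barcodes were kept with 800 to 5000 genes and at most 6% mitochondrial counts, and tissue was taken from the tag with at least 90% of tag counts, B0304 for lung and B0306 for blood in the order the methods name them. Cells without such a tag, 342, 158 and 141 in the naive, 6 h and 14-day libraries, were left out. No doublet caller was run, so doublets within a tissue remain. The libraries shared 16, 11 and 7 kept barcodes in pairs. Counts were summed per library and tissue and scaled to CPM (per 1000000 UMIs of all genes), with exact Poisson intervals for levels, exact (Clopper-Pearson) binomial intervals for shares and exact conditional intervals for ratios, all at 95%. UMIs stand for captured transcripts, and intervals cover counting error only. Time points, each 1 library, were not tested against each other. Lung and blood were tested over the 3 libraries with edgeR 4.0.16 (R 4.3.3, glmQLFit and glmQLFTest, TMM factors, genes with at least 20 CPM in 3 of the 6 sums) on the summed counts with library as a block, since both tissues of a library were captured together, and p-values were adjusted over all genes by the Benjamini-Hochberg method. DESeq2 1.42.0 was an alternative. Ratios were read for genes with a floor of 20 CPM in the higher group, and 1.5-fold was the threshold. From markers of other cells in barcodes with at most 100 counts, free RNA was at most 6.53%, 2.47% and 1.81% of counts in the naive, 6 h and 14-day libraries.

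The members and all lists were chosen with earlier results of these data known. Named members are Myc, Npm1, Ncl and Fbl and the 3 largest and 3 smallest ratios per comparison, and for other lists at most the 3 largest and 3 smallest in 14-day over naive lung, and the 10 genes most like the members. Any further gene named alone was picked with its values in view, and the time points within gated classes were compared after the pooled values had been seen. Host genes of small nucleolar RNAs and protein features of the members were not analysed here. Scripts used Python 3.11.15 with numpy 2.4.6, scipy 1.17.1 and pandas 2.3.3, and were checked on simulated data. The tissue test, a floor asked of both groups and the split of the motif count were added after seeing the data. Alternatives were another filter on cells, thinning, subtraction of free RNA, other totals, centring, other floors and thresholds, and leaving out cycling cells, the deepest cells or the first 9 members.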

Additional observations from a re-analysis of the deposited data

How the results depend on the processing

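Of 291 values recomputed under an alternative, 229 were marked as unmoved and 62 as moved. A median ratio between groups was marked as unmoved inside the counting interval of its middle gene, which is not an interval of the median. The median across cells was judged by its spread over the 6 groups, counts by a factor of 1.5 and the motif share by its binomial interval. A reversal was recorded only for a median ratio between groups past 1.5-fold. No such median was past it, so no reversal could be recorded. The median of lung over blood at 14 days did change sign, from -0.07 to 0.03 with centring on the all-gene median. It was still marked as unmoved by this rule. The median ratio at 6 h was 0.22 to 0.33 in lung and 0.23 to 0.33 in blood under every alternative run, and 19 or 20 members varied together across cells. Counts of members past a threshold were small and moved easily. Among the alternatives listed here, the share of all genes past a threshold between groups was computed for centring alone. For lung at 6 h, the count past 1.5-fold higher was 2 and became 1 with the stricter filter on cells, with thinning to 3000 UMIs, without cycling cells or without the 5% of cells with most UMIs. It became 4 with free RNA subtracted, with totals lacking mitochondrial and ribosomal protein genes or with centring on the all-gene median, 6 with no floor, 12 at a looser threshold of 0.32 on the log2 scale, and 0 without the first 9 members, at a floor of 50 CPM or at 2-fold. For blood at 6 h it was 4 and became 2 with thinning or without the deepest cells, 12 at the looser threshold, and 0 without the first 9 members, at 50 CPM or at 2-fold. For lung at 14 days the median of 0.23 became 0.10 with thinning, 0.39 with the reduced totals and 0.44 with centring. The count higher there was 1 and became 2 with the reduced totals, 5 with centring, 3 with no floor, 8 at the looser threshold and 0 at 50 CPM, and the count lower became 0 at 50 CPM or at 2-fold. For blood at 14 days the median was 0.22 with centring, and 2 members were higher and 1 lower at the looser threshold. Between tissues, the naive count lower in lung was 0 and became 1 with thinning or with free RNA subtracted, 2 with no floor and 6 at the looser threshold. At 6 h it was 1 and became 2 with thinning or without the deepest cells, 6 at the looser threshold and 0 at 2-fold. At 14 days the count higher became 0 with thinning, without the deepest cells, at 50 CPM or at 2-fold, and the count lower became 4 at the looser threshold and 0 at 50 CPM or at 2-fold. The median ratio across cells was 1.76 with the highest 5% of cells in place of 10%. The cause of these shifts was not tested, beyond those that a floor or threshold makes by its construction.

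With 20 CPM asked of both groups, an alternative chosen after seeing the data, the counts higher at 6 h became 0 in lung and 1 in blood, both counts in 14-day over naive lung became 0, and the count lower in lung at 14 days became 0.

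The paired test of lung against blood, with library as replicate block, called 1 member higher and 1 lower. Without the block it called 0 and 0 of 28 (1 at an unadjusted p under 0.05), where 522 of 6410 genes were called higher and 217 lower. With DESeq2's size factors it called 3 lower, where 680 of 6410 genes were called lower. With no minimum CPM it called 2 higher of 37, where 1477 of 19420 genes were called higher. Leaving out each library in turn gave 0 to 7 higher and 0 to 11 lower. The zeros came without the naive library and without the 6 h library, with 1 and 2 members at an unadjusted p under 0.05. The highest counts came without the 14-day library, where 2116 of 6540 genes were called higher and 1830 lower. With 1 library per time point no library was left out of the ratios between time points, and the spread between mice is unknown. In the smallest classes of cells a member near 20 CPM rested on few UMIs, such as 30 of Bysl in 14-day blood cells with Cd27 and no Itgam (13.5 to 28.6 CPM). Protein features of the members were not run.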
